A study of Homo sapiens with 6 samples.

Results

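The glucocorticoid receptor gene NR3C1 and 6 genes known as its targets, SGK1, TSC22D3, FKBP5, PER1, DUSP1 and ZBTB16, were taken by symbol from the gene table, 7 of its 17579 genes. They were chosen with the comparison of AURKA-guide and control libraries already known, so their differences in that comparison are given as a description. RNA-seq was made from LP-1, an established human multiple myeloma cell line, cultured with fetal bovine serum. The control group (3 libraries, C1 to C3) had received a virus with a guide RNA that has no target, and the AURKA-guide group (3 libraries, A1 to A3) a virus with a guide against AURKA, which encodes the mitotic kinase Aurora A and which the labels call Aurora A-KO. The labels name no glucocorticoid treatment in either group, do not say whether the cells were a clone or a pool, and do not say whether replicates were separate cultures. All p-values therefore measure the spread between these libraries, which may be technical.

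The glucocorticoid receptor is a transcription factor of the nuclear receptor family. Without hormone it is held in the cytoplasm by HSP90 and its co-chaperones; once cortisol or a drug such as dexamethasone binds, it moves to the nucleus, binds glucocorticoid response elements and raises some genes while lowering others, many of them inflammatory. In plasma cells and myeloma glucocorticoids are known to trigger cell death, and they are part of standard treatment.

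Total expected counts lay between 17724174 and 18523594 per library, so that 1 CPM (the read count scaled to library size) was about 18 reads. AURKA itself averaged 192.02 ± 2.85 CPM in the controls and 114.96 ± 3.86 CPM with the guide (SD, 3 libraries a group), a log2 fold change of -0.74. The labels give the cells as B lymphoblasts, and all 8 plasma cell markers looked at (CD38, SDC1, TNFRSF17, IRF4, PRDM1, XBP1, JCHAIN, MZB1) were present at 90.8 to 5332 CPM. Their summed level was 8468 to 9321 CPM over C1 to C3 and 8628 to 8844 CPM over A1 to A3, a sum in which JCHAIN has the largest share. For some single markers the groups did not overlap in CPM, as for 20.8% of all genes tested (10.5% higher and 10.2% lower). CD38, a surface enzyme, was at 207.2, 206.5 and 217.2 CPM in C1, C2 and C3 and at 273.5, 274.8 and 272.5 CPM in A1, A2 and A3, a log2 fold change of 0.38. TNFRSF17, IRF4 and PRDM1 were lower in all AURKA-guide libraries than in any control library, by log2 fold changes of -0.12, -0.12 and -0.06, and the other 4 markers overlapped. Their part in the results was not tested. The B cell marker MS4A1 was at 0 in all 6 libraries. T and NK cell, myeloid, erythroid and stromal or epithelial markers averaged at most 5.02 CPM. Control library C3 stood apart from C1 and C2 in its dependence on transcript GC content. The median centred log2 CPM of the fifth of genes with the lowest GC content was -0.05 in C1, -0.12 in C2 and 0.07 in C3, against -0.01, 0.04 and 0.07 in A1, A2 and A3. Where leaving out C3 or a correction for GC content ended or made a call, that is said beside the result.

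The stretch of 250 bases before a RefSeq start (GRCh38.p14) is shown for SGK1, the member that changed, for FKBP5, the most abundant, and for DUSP1, whose stretch holds the most motif matches. The windows searched held in addition the first 50 bases after the start and were found for 6 of the 7 members, ZBTB16 being without one. Capitals mark matches to the E-box CACGTG, the cAMP response element TGACGTCA or the TATA box TATAAA, on either strand.
SGK1 chr6:134174867-134175116, minus strand: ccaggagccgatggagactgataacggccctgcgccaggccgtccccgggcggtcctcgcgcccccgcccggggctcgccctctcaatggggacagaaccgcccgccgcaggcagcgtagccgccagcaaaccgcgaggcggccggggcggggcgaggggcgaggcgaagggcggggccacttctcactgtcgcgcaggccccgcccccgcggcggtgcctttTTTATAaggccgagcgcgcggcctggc
FKBP5 chr6:35688916-35689165, minus strand: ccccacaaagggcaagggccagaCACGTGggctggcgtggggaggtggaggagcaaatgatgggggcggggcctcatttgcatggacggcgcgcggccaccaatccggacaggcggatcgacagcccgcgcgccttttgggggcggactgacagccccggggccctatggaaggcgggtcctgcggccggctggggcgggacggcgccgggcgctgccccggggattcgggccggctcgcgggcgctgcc
DUSP1 chr5:172771196-172771445, minus strand: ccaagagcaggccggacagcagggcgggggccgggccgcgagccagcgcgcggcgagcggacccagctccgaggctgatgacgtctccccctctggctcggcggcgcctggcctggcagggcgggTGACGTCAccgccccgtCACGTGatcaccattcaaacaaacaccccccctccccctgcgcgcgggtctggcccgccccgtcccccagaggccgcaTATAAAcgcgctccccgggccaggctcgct
The start of the transcript with the largest estimated share of reads lay 30 bases from the SGK1 start, 22 bases from the FKBP5 start and at the DUSP1 start. The SGK1 stretch held 1 TATA box match, on the opposite strand and so shown here as TTTATA, beginning 27 bases before the start (position -27). In FKBP5 the match was an E-box at -227, and in DUSP1 a cAMP response element at -125, an E-box at -108 and a TATA box at -30. The shorter TGACG, not capitalised and contained in the full element, was in 24.6% of all windows. Of all 35116 RefSeq windows of this length, 7.26% held the E-box, 1.85% the full cAMP response element and 11.5% the TATA box. The palindromic glucocorticoid response element (AGAACA, any 3 bases, then TGTTCT) was in none of the 18 member windows and in 0.00285% of all windows; its core AGAACA was in 1 FKBP5 and 1 SGK1 window, neither of them shown, and in 14.8% of all windows. A match is only the presence of these letters, and its absence says nothing of the receptor's binding elsewhere.

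Of the 7 members, 6 passed the filter on low counts, and in the edgeR quasi-likelihood fit SGK1 was the 1 past a Benjamini-Hochberg adjusted p of 0.05, higher in AURKA-guide libraries. Over all 13138 genes tested, 267 passed (2.03%), 126 higher (0.959%) and 141 lower (1.07%). Because the members were chosen on this contrast, nothing is read from that count. The groups did not overlap in CPM for SGK1 and FKBP5 (higher) and TSC22D3 (lower), 3 of the 6, against 20.8% of all genes tested, 10.5% higher and 10.2% lower. In bulk RNA, fewer cells expressing a gene and less RNA per cell cannot be told apart. The log2 fold changes of the receptor and the 4 other tested targets ran from -0.31 to 0.14, and that of SGK1 was 0.73.

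**Figure D1:**
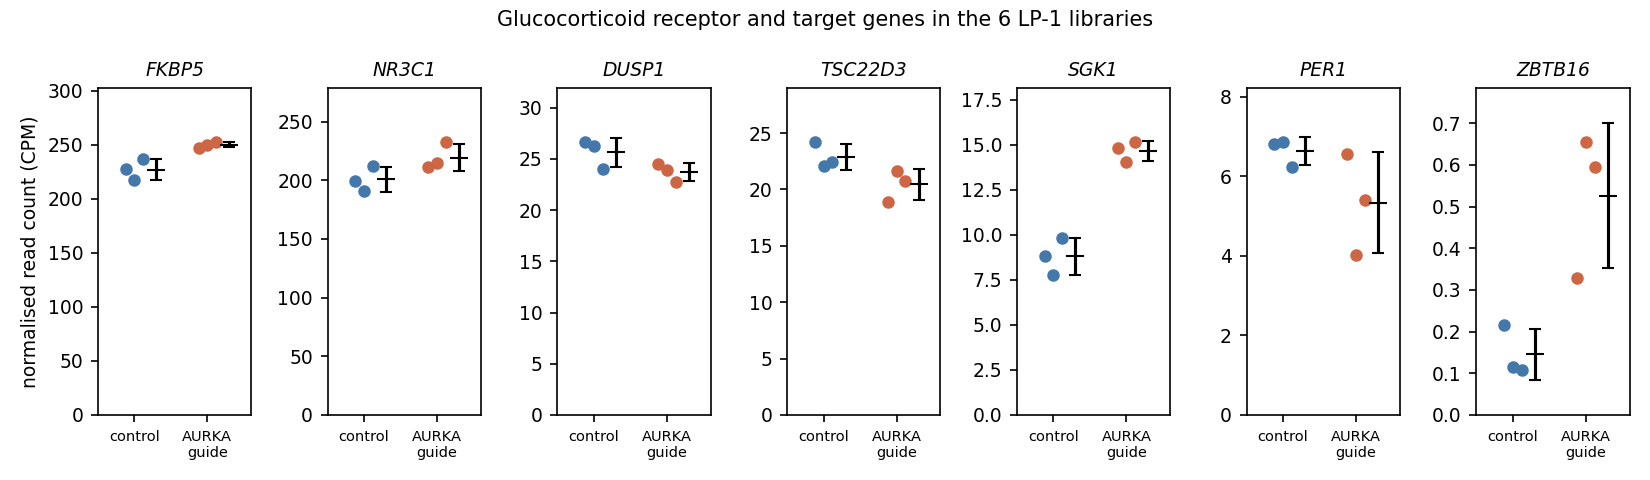
Normalised read counts (CPM, y axis starting at 0, a separate scale for each gene) of the 7 genes in the 3 control (blue) and 3 AURKA-guide (orange) libraries; points are libraries, bars the mean ± SD. SGK1 at 14.1 to 15.1 CPM in AURKA-guide libraries lies above all control libraries at 7.77 to 9.83 CPM, while NR3C1, PER1 and DUSP1 overlap between the groups.

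The receptor was well expressed. NR3C1 (gene ID 2908) was at 199.2, 191.1 and 212.3 CPM in C1, C2 and C3 and at 211.1, 214.8 and 232.2 CPM in A1, A2 and A3. A1 lay below C3, so the groups overlapped. The means were 200.8 ± 10.7 and 219.4 ± 11.3 CPM (SD, n = 3 each), a log2 fold change of 0.13 (SE 0.0548, edgeR adjusted p = 0.271). NR3C1 has a low transcript GC content, 39.1% against a median of 48.5% over the tested genes, and genes of low GC content were on the whole higher in AURKA-guide libraries. After a correction for GC content the NR3C1 difference was 0.06 (edgeR adjusted p = 0.294). Without C3 it was 0.17 and passed (edgeR adjusted p = 0.0256, range 0.0256 to 0.719 over 16 alternatives), in a fit where 15.3% of all genes passed; in the GC-corrected fit 6.08% did.

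FKBP5 encodes an HSP90 co-chaperone that lowers the receptor's affinity for hormone and is itself induced by the receptor. FKBP5 (gene ID 2289) was at 227.5, 217.2 and 236.8 CPM in C1, C2 and C3 and at 247.6, 250.4 and 252.3 CPM in A1, A2 and A3. All AURKA-guide libraries lay above all control libraries, by a narrow gap, with less spread among themselves. The means were 227.2 ± 9.80 and 250.1 ± 2.39 CPM (SD, n = 3 each), a log2 fold change of 0.14 (SE 0.0479, edgeR adjusted p = 0.175). FKBP5 has a transcript GC content of 41.5%. The difference was 0.09 after the GC correction (edgeR adjusted p = 0.0862). Without C3 it was 0.17 and passed (edgeR adjusted p = 0.0136, range 0.0136 to 0.529 over 16 alternatives), as did 15.3% of all genes tested.

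SGK1 encodes the serum- and glucocorticoid-regulated kinase, which phosphorylates targets such as NDRG1 and acts on ion channels and FOXO factors. SGK1 (gene ID 6446) had expected counts of 163, 136 and 183 in C1, C2 and C3 and of 271, 258 and 279 in A1, A2 and A3. Scaled, these were 8.81, 7.77 and 9.83 CPM against 14.8, 14.1 and 15.1 CPM, with a wide gap between the groups. The means were 8.80 ± 1.03 and 14.7 ± 0.547 CPM (SD, n = 3 each), 1.66-fold or 0.73 on the log2 scale (SE 0.0975, edgeR adjusted p = 9.6e-04). In all 16 alternatives run SGK1 stayed past the threshold, with log2 fold changes from 0.61 to 0.82 and adjusted p-values from 1.38e-05 to 0.0109. After the GC correction the log2 fold change was 0.71, with SGK1 at a GC content of 46.5%, near the median. The authors' deposited gene table, which lists 229 genes, holds SGK1 as its only member of the 7, at a log2 fold change of 0.73 (DESeq2 q-value 5.41e-05). That value is of the same comparison in the same series, so it is not separate support.

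TSC22D3 encodes GILZ, a leucine zipper protein that is among the most regular glucocorticoid targets in lymphoid cells. TSC22D3 (gene ID 1831) was at 24.2, 22.1 and 22.4 CPM in C1, C2 and C3 and at 18.9, 21.6 and 20.8 CPM in A1, A2 and A3. Every AURKA-guide library lay below every control library, but A2 and C2 were close. The means were 22.9 ± 1.13 and 20.4 ± 1.38 CPM (SD, n = 3 each), a log2 fold change of -0.16 (SE 0.0768, edgeR adjusted p = 0.315). It was not past the threshold in any of 16 alternatives, with values from -0.21 to -0.11.

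DUSP1 encodes a phosphatase that inactivates MAP kinases. DUSP1 (gene ID 1843) was at 26.6, 26.3 and 24.0 CPM in C1, C2 and C3 and at 24.4, 23.9 and 22.8 CPM in A1, A2 and A3. The lowest control library, C3, lay below A1, so the groups overlapped. The means were 25.6 ± 1.41 and 23.7 ± 0.863 CPM (SD, n = 3 each), a log2 fold change of -0.11 (SE 0.0713, edgeR adjusted p = 0.463). With a GC content of 55.1%, it was at -0.07 after the GC correction and at -0.16 without C3, short of the threshold in both.

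PER1, a repressor of the circadian clock, is another direct target. PER1 (gene ID 5187) was at 6.81, 6.86 and 6.23 CPM in C1, C2 and C3 and at 6.56, 4.03 and 5.42 CPM in A1, A2 and A3. A1 lay inside the control range and A2 was lowest. The means were 6.63 ± 0.349 and 5.34 ± 1.27 CPM (SD, n = 3 each), a log2 fold change of -0.31 (SE 0.152, edgeR adjusted p = 0.329). The size rested on single libraries, being -0.15 without A2 and -0.49 without A1. PER1 also has the highest transcript GC content of the tested members, 62.7%, and its value was -0.21 after the GC correction and -0.36 without C3, short of the threshold in both.

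ZBTB16 encodes PLZF, a zinc finger repressor that glucocorticoids strongly induce in several tissues. ZBTB16 (gene ID 7704) had only 4.07, 2.11 and 2.32 expected counts in C1, C2 and C3 and 5.52, 11.8 and 10.6 in A1, A2 and A3. With all 6 libraries it did not pass the low count filter, and its highest library was at 0.654 CPM. The groups did not overlap, but at these counts the difference rests on a few reads. In the fit without the filter the log2 fold change was 1.80 (SE 0.550, edgeR adjusted p = 0.138). ZBTB16 passed the filter in the fits without C1, C2, C3 or A1, at 2.18, 1.66, 1.62 and 2.04. The edgeR adjusted p-values there were 0.196, 0.232, 0.0718 and 0.0812, short of the threshold. ZBTB16 entered those fits only through A2 and A3, libraries of the group where it was high. The filter itself thus selected for the difference, and these values are only a description.

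**Figure D2:**
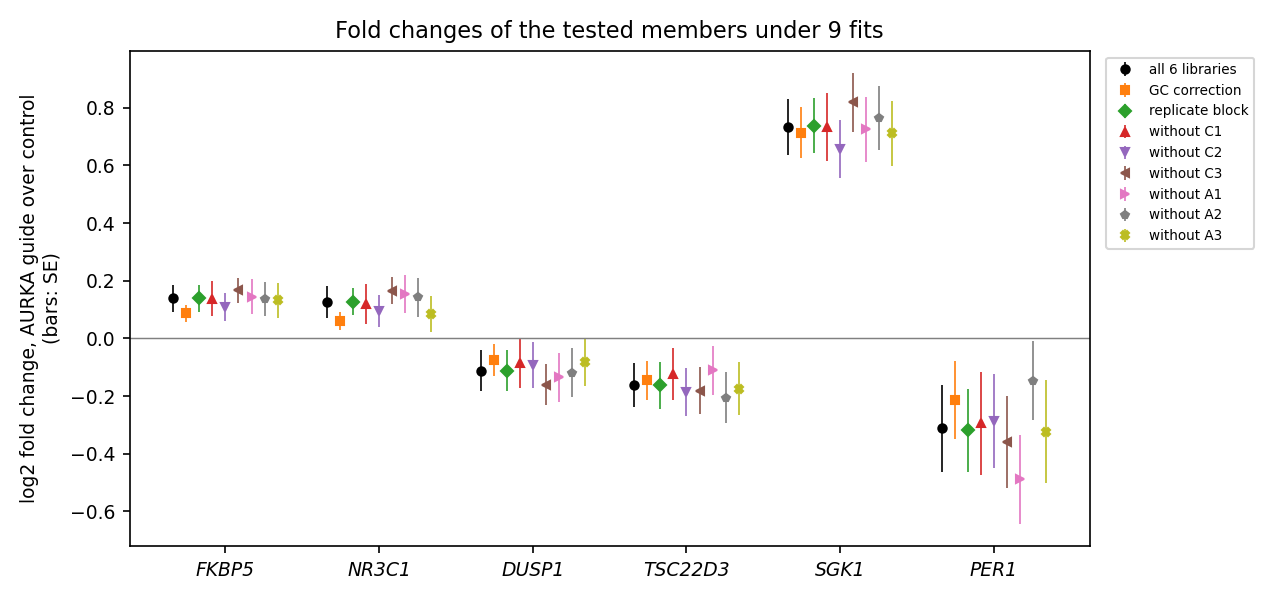
Log2 fold change of AURKA-guide over control (y axis, bars are SE) of the 6 tested members in the fit of all 6 libraries, with GC correction, with the replicate number as a block, and without each library in turn. SGK1 stays between 0.66 and 0.82, while PER1 runs from -0.49 to -0.15 and the others stay within 0.21 of 0.

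**Figure D3:**
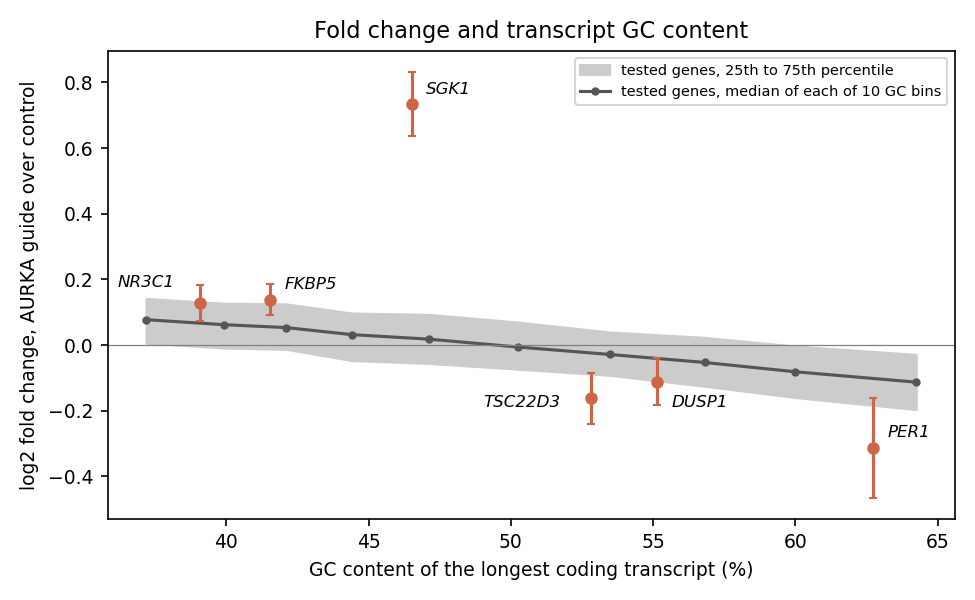
Log2 fold change of AURKA-guide over control (y axis) against the GC content of the longest coding transcript (x axis, percent); the line is the median and the band the 25th to 75th percentile of tested genes in each of 10 bins of GC content, and orange points with SE bars are the 6 tested members. The median falls from 0.08 at 37.2% to -0.11 at 64.2%, NR3C1 and FKBP5 (39.1% and 41.5%) lie above 0 and TSC22D3, DUSP1 and PER1 (52.8% to 62.7%) below it, and SGK1 lies far above the band.

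The levels of the members relative to each other were compared per length, in TPM. In control libraries FKBP5 was highest (114.7 ± 7.39 TPM), followed by NR3C1 (59.7 ± 4.47), DUSP1 (24.5 ± 1.11), TSC22D3 (22.7 ± 1.40), SGK1 (7.12 ± 1.02), PER1 (2.73 ± 0.0917) and ZBTB16 (0.0433 ± 0.0115; SD, n = 3 for each). FKBP5 stood at the 91.8 percentile of control TPM over all genes of the table, NR3C1 at 84.0, SGK1 at 50.02 and ZBTB16 at 12.04. Of the neighbours in this order, DUSP1 and TSC22D3 overlapped in range, with means 1.08-fold apart, and every other pair was at least 1.92-fold apart without overlap. In AURKA-guide libraries the order was the same, with FKBP5 at 128.9, NR3C1 at 66.9, DUSP1 at 23.2, TSC22D3 at 20.6, SGK1 at 12.01, PER1 at 2.27 and ZBTB16 at 0.12 TPM.

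The spread between control replicates, which enters the comparison known when the members were chosen, was ordinary for most members. The coefficient of variation of NR3C1 over C1 to C3 was 5.33%, against a median of 5.06% over 1102 genes within 1.5-fold of its level. For FKBP5 it was 4.32% against 5.04%, and for TSC22D3 4.96% against 6.68%. SGK1 was more variable, at 11.7% against 8.46%, and PER1 less, at 5.26% against 9.57%. These are descriptions over 3 libraries.

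Reads of a gene are divided by RSEM among its annotated transcripts, and the table listed 37 transcripts of the 7 genes, of which 18 passed the filter and 25 were at 0 in some library. In edgeR 1 of 43979 transcripts passed an adjusted p of 0.05 (0.00227%), none of them of a member, with 1693 at an unadjusted p under 0.05, 2 of which belong to members; DESeq2 called 891 transcripts (2.04% of 43589), among them 2 of members, SGK1 NM_005627.3 (adjusted p = 4.28e-07) and FKBP5 NM_004117.3 (adjusted p = 0.00538). For 5 genes 1 transcript held most of the reads in every library. NM_005627.3 held 91.7% of the SGK1 counts on average, with 143.7, 136 and 146.8 in C1, C2 and C3 and 238.1, 258 and 262.0 in A1, A2 and A3. NM_004117.3 held 97.3% of FKBP5 and NM_004089.3 92.6% of TSC22D3. DUSP1 has 1 listed transcript, NM_004417.3, and XM_017018259.1 held 91.2% of the few ZBTB16 counts. For PER1, XM_005256689.2 held 80.9% on average but from 18.3% in C1 to 100% in C2 and A2; in C1, 80.55 counts were given to NM_002616.2, which was at 0 in the other 5 libraries.

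NR3C1 had 16 listed transcripts, of which 8 were tested and 11 were at 0 in some library. XM_017009397.1 held 38.7% of NR3C1 counts on average (34.5% to 44.5% over the 6 libraries) and NM_001018076.1 30.0% (18.6% to 44.2%). Together they held 61.1%, 63.1% and 73.7% in C1, C2 and C3 and 67.1%, 68.0% and 78.9% in A1, A2 and A3, so the groups overlapped. The minor transcripts came and went from library to library. NM_001204260.1 was listed at 1.21, 0 and 313.4 in C1, C2 and C3 and at 0.03, 0 and 0 in A1, A2 and A3, and NM_000176.2 at 155.5 in C3 and at 0 in the other 5. In the authors' deposited transcript table these have log2 fold changes of -23.1 (q-value 6.19e-07) and -22.2 (q-value 1.77e-08). Both values rest on the 1 control library C3, while the NR3C1 gene total had a log2 fold change of 0.13.

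**Figure D4:**
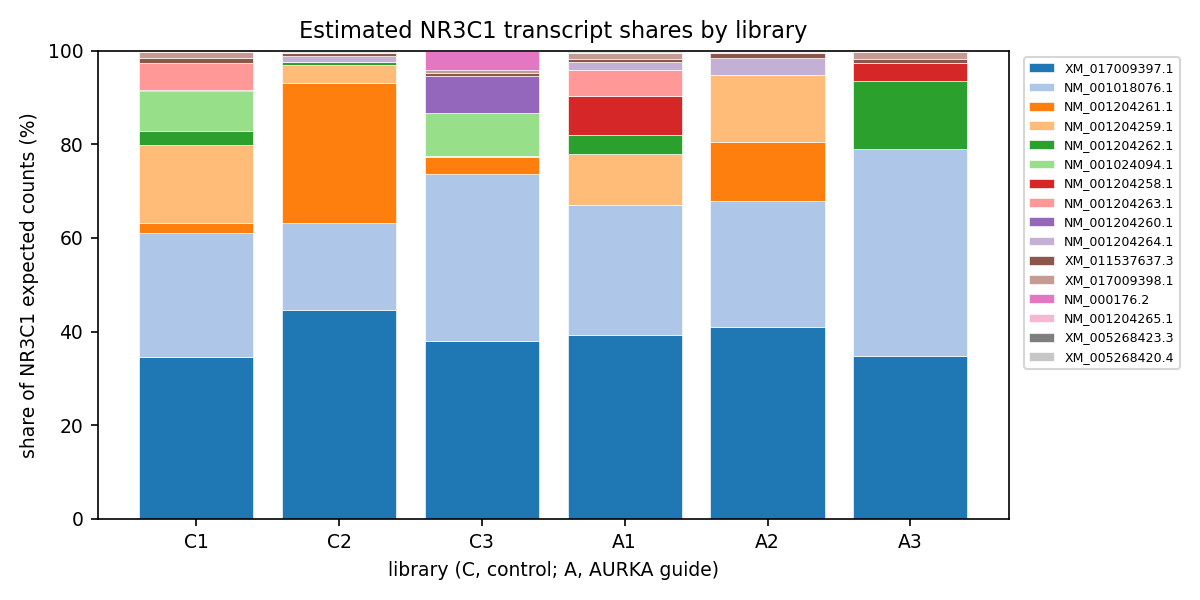
Share of NR3C1 expected counts (y axis, percent) that was estimated for each of its 16 listed transcripts in control libraries C1 to C3 and AURKA-guide libraries A1 to A3 (x axis); each colour is a transcript. XM_017009397.1, which leads on average, keeps 34.5% to 44.5% in every library. NM_001018076.1 runs from 18.6% to 44.2% and is the larger in A3, and the smaller ones change between replicates of the same group.

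The authors' deposited transcript table also gives a comparison of an NSD2 guide with the control, whose NSD2-guide libraries were not analysed here; NSD2 encodes the histone methyltransferase named with Aurora A in the series title. Both comparisons share the control libraries, so their values are only set side by side. Over all transcripts of the authors' deposited table, 1.55% of 78198 transcripts had a q-value under 0.05 for the AURKA guide and 1.78% of 78311 for the NSD2 guide. The main SGK1 transcript, NM_005627.3, had a log2 fold change of 0.82 (q-value 0.0206) with the AURKA guide and of 0.45 (q-value 0.968) with the NSD2 guide. FKBP5 NM_004117.3 was at 0.15 (q-value 0.0955) and -0.04. TSC22D3 NM_004089.3 was at -0.14 and 0.11, DUSP1 NM_004417.3 at -0.11 and 0.15, and the leading NR3C1 transcript XM_017009397.1 at 0.10 and 0.10 for the AURKA and NSD2 guide, none with a q-value under 0.05. PER1 XM_005256689.2 was at 0.31 and 0.67, while the PER1 gene total had a log2 fold change of -0.31 for the AURKA guide. In C1 that transcript was given 23.06 counts, against 120 in C2 and 84.01 in C3, and both comparisons share these libraries. ZBTB16 XM_017018259.1 was at 1.82 and 1.28, and neither transcript had a q-value under 0.05. In the authors' deposited table no leading member transcript therefore passed for the NSD2 guide. NSD2 itself, in the libraries analysed here, had a log2 fold change of -0.02 (edgeR adjusted p = 0.822) for the AURKA guide.

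Other genes of the pathway were looked at in 9 lists of 138 genes, of which 129 were in the gene table and 107 were tested. Of these 1 passed as higher and 2 as lower, against 2.03% of all genes in either direction, and the median log2 fold change was -0.0008 against -0.00009 over all genes tested. The gene that passed as higher, MMP9, met the low count filter through the AURKA-guide libraries. The counts of genes passing moved with GC content and with C3. After the GC correction 10 passed as higher and 4 as lower, against 6.08% of all genes, and without C3 11 and 12, against 15.3%.

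Of 16 chaperones and co-chaperones of the receptor none passed with all 6 libraries. Their median of 0.01 was -0.02 after the GC correction, when 1 passed as higher, and 0.02 without C3, when 3 passed as higher and 2 as lower. HSPA8, a heat shock protein 70, was at 0.13 (edgeR adjusted p = 0.129). It passed in 3 of 16 alternatives, the GC correction, that correction with the replicate block, and the fit without C3 (adjusted p over all 16 from 0.00652 to 0.449). The ubiquitin ligase STUB1 was at -0.17 (edgeR adjusted p = 0.227), at -0.05 after the GC correction and at -0.25 without C3, the 1 alternative in which it passed (adjusted p from 0.00405 to 0.582).

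Of 18 coregulators none passed with all 6 libraries. Their median was 0.05, and 0.06 after the GC correction (1 higher), but 0.0007 without C3 (2 higher, 1 lower). The arginine methyltransferase CARM1 was at -0.14, at -0.05 after the GC correction and at -0.19 without C3. The coactivator NCOA3 was at 0.15, 0.10 and 0.17 in the same fits, and both passed without C3 alone of the 16 alternatives. Of 7 genes of steroid receptors and cortisol metabolism 2 were tested and none passed in these 3 fits: H6PD, which supplies the cofactor for cortisol activation, was at -0.20, and the mineralocorticoid receptor gene NR3C2, at 0.97 CPM, at -0.01.

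Among 30 other genes known to be induced by glucocorticoids, 22 were tested, 1 passed and the median was -0.0005. After the GC correction 5 passed as higher and 2 as lower (median 0.03), and without C3 3 and 3 (median -0.01). CDKN1C, an inhibitor of cyclin-dependent kinases, fell: it was at 21.9, 24.7 and 18.4 CPM in C1, C2 and C3 and at 15.6, 13.6 and 14.1 CPM in A1, A2 and A3. The groups did not overlap, and the log2 fold change was -0.58 (SE 0.103, edgeR adjusted p = 0.00735); the call was lost without A2 (adjusted p = 0.0751) and without A3 (adjusted p = 0.0589), over a range of 7.29e-05 to 0.0751. CDKN1C has a high transcript GC content, 63.8%. Its log2 fold change shrank to -0.47 after the GC correction (edgeR adjusted p = 3.66e-04) and was -0.69 without C3. BTG1, an antiproliferative gene, was at 0.23 and short of the threshold (edgeR adjusted p = 0.0567). It passed without C2, without C3 and with the replicate block (adjusted p over 16 alternatives from 0.0152 to 0.289). Of 14 genes known to be repressed, mostly cytokines and adhesion molecules, 3 were tested. MMP9, a matrix protease, rose from 0.657 ± 0.227 to 1.72 ± 0.367 CPM (SD, n = 3 each; log2 fold change 1.38, SE 0.294, edgeR adjusted p = 0.0234), but on 9 to 37 reads per library, and the call was lost without C2 (adjusted p = 0.0605), A2 (adjusted p = 0.149) or A3 (adjusted p = 0.130), over a range of 0.00491 to 0.149; on the log2(FPKM + 1) scale, which understates the change of low genes, it was 0.44. MMP9 met the filter on low counts through the AURKA-guide libraries, since its 9 and 10 reads in C2 and C3 were short of the cutoff. It thus entered the test through the group where it was high, and its call is given only as a description. ICAM1, an adhesion molecule, was at 0.13 (edgeR adjusted p = 0.241). After the GC correction it was at 0.18 and passed, as it did with that correction and the block (adjusted p over 16 alternatives from 0.00286 to 0.512), so that 2 of the 3 then passed as higher.

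Of 12 tested genes of the SGK pathway none passed with all 6 libraries, with a median of -0.01. RICTOR, a subunit of the kinase complex that activates SGK1, was at 0.28 (edgeR adjusted p = 0.150) and passed in 4 of 16 alternatives (adjusted p from 0.00333 to 0.563). These were the replicate block, the GC correction (0.20), both together, and the fit without C3 (0.39). NDRG2, a relative of the SGK1 substrate NDRG1, was at -0.21 and passed in none. Of 15 tested clock genes 1 passed, with a median of -0.01. DBP, an output transcription factor of the clock, fell: it was at 12.5, 13.7 and 11.7 CPM in C1, C2 and C3 and at 9.52, 10.1 and 8.94 CPM in A1, A2 and A3, without overlap. Its log2 fold change was -0.41 (SE 0.0954, edgeR adjusted p = 0.0403), and the call held in 9 of 16 alternatives (adjusted p from 0.00548 to 0.233), being lost without each of C1 (0.150), C2 (0.116), A1 (0.106), A2 (0.103) and A3 (0.233), as adjusted p, with the DESeq2 Wald test (0.0933) and with the replicate block and GC correction (0.0597). DBP too has a high transcript GC content, 65.5%. Its log2 fold change shrank to -0.29 after the GC correction, just past the threshold (edgeR adjusted p = 0.0491), and was -0.46 without C3. CLOCK was at 0.21, at 0.14 after the GC correction and at 0.25 without C3, where it passed. Of 12 MAP kinase phosphatases and kinases none passed with all 6 libraries (median -0.03), 1 was lower after the GC correction and 2 were lower without C3 (median 0.02). MAPK9 was at -0.22 (edgeR adjusted p = 0.0731) and passed in 3 of 16 alternatives, those with the GC correction (-0.26) and the fit without C3 (adjusted p from 0.00195 to 0.315). MAPK3 was at -0.16, at -0.07 after the GC correction and at -0.23 without C3, where it passed. Of 7 tested relatives of TSC22D3 and ZBTB16 none passed with all 6 libraries or after the GC correction, and 3 were lower without C3; the medians were -0.06, -0.0002 and -0.16. ZBTB7B was at -0.14, -0.03 and -0.24 in these fits and ZBTB7A at -0.09, -0.01 and -0.16, and both passed without C3.

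**Figure D5:**
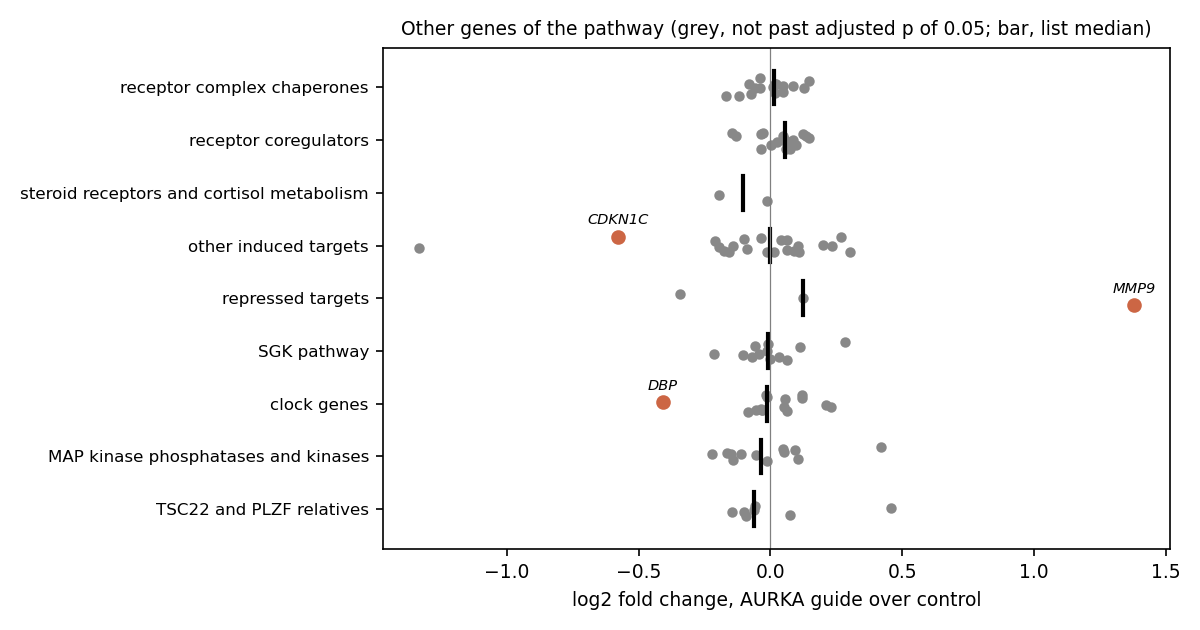
Log2 fold change of AURKA-guide over control with all 6 libraries (x axis) of the 107 tested genes in 9 lists of the pathway (rows); each point is a gene, orange and named where it passed an adjusted p of 0.05 in edgeR, and the black bar is the list median. CDKN1C and DBP lie on the lower side and MMP9 on the higher, and the list medians lie between -0.11 and 0.13.

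The genes whose pattern over the 6 libraries was most like that of SGK1 were found by the root mean square difference of centred log2 CPM, among 10250 genes that averaged 5 CPM or more. The nearest were IL16, a cytokine precursor (0.115), MTRNR2L9 (0.131), the giant muscle protein TTN (0.134), the tetraspan protein LHFPL2 (0.137) and IGFBP3, which binds insulin-like growth factors (0.138), against a median distance of 0.387. MTRNR2L9 shares near-identical copies with mitochondrial RNA, so its count is uncertain. IL16 was at 15.9, 16.3 and 17.1 CPM in C1, C2 and C3 and at 25.5, 23.7 and 24.8 CPM in A1, A2 and A3. IGFBP3 was at 130.1, 131.6 and 132.4 CPM in C1, C2 and C3 and at 248.4, 250.5 and 248.4 CPM in A1, A2 and A3, with a log2 fold change of 0.92 beside 0.73 for SGK1. Likeness over 6 libraries in 2 groups mostly restates the difference between the groups.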

How the data were processed

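RNA-seq libraries of LP-1 cells (3 control, 3 AURKA guide) were sequenced, per the labels, by a BGISEQ-500 protocol. The submitters' processing notes name RSEM, Bowtie2, BWA and the build hg19; the sources used here give no versions, settings or strandedness. For each gene and transcript the authors deposited expected counts, which RSEM estimates and which need not be whole (44.8% of gene values), and, per the file headers, FPKM and TPM per gene. The authors' deposited comparison tables hold log2 fold changes, p-values and q-values from DESeq2, per the file headers.

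Rounded expected counts entered edgeR 4.0.16 under R 4.3.3 (filterByExpr, TMM scaling, quasi-likelihood F test, Benjamini-Hochberg adjustment over all 13138 genes at 0.05). CPM uses the TMM-scaled library size. The test was also run on simulated counts, drawn without the dependence on GC content or on C3 seen here. The changes put into them were not in genes of few reads. That check therefore does not bear on those effects or on changes in such genes. Standard errors come from the F statistic. Members were taken by symbol, and promoter windows from RefSeq (GRCh38.p14); 17316 gene IDs matched a RefSeq gene. GC content came from the longest coding transcript in the reference annotation (97.5% of tested genes). Replicates of a group differed by more than counting noise (chi-square per gene 2.24 to 10.5), so none is a copy. The members and the gene lists were chosen with earlier results of these data known.

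Named genes are the 7 members, AURKA and NSD2, in each list those past the threshold and the 2 with the smallest p that averaged 5 CPM or more, and the 5 genes nearest to SGK1; NR3C2 and the marker genes named were added after their values were seen. The alternatives tried were a block for the replicate number, a GC correction by a spline with 5 degrees of freedom (alone and with the block), 2 other filters (none, or 10 CPM on average), scaling by DESeq2 size factors or by library size, DESeq2 1.42.0 with its Wald test, limma-trend (limma 3.58.1) on log2(FPKM + 1) and log2(FPKM + 0.1), and each library left out.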

Additional observations from a re-analysis of the deposited data

How the results depend on the processing

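No member changed direction under any alternative run. SGK1 kept its call in all 16, and TSC22D3, DUSP1 and PER1 (15 for PER1, which a mean of at least 10 CPM removes) were called in none. NR3C1 and FKBP5 passed only without C3, at 0.17 each, in a fit where 3 members passed beside 15.3% of all genes tested. Over the fits without 1 library the log2 fold changes were 0.084 to 0.17 for NR3C1, 0.11 to 0.17 for FKBP5 and 0.66 to 0.82 for SGK1, with 1 to 3 members past the threshold. The count over all genes was 267 and ran from 98 to 2034 over those fits, 799 with the GC correction and 894 with the replicate block and the GC correction. Deviations of same-numbered libraries were only weakly correlated (0.05, -0.10 and 0.10), and not every library was closest to its own number. With 3 libraries a group, these correlations cannot settle whether the numbers pair the libraries. The replicate block gave 385 genes and moved no member across the threshold. In the pathway lists, genes higher (1) became 4 with the replicate block, 10 with the GC correction, 11 with both, 2 with the DESeq2 Wald test, 0 at a mean of at least 10 CPM and 0 to 11 without 1 library; genes lower (2) became 4 with the GC correction, 1 with the DESeq2 Wald test and 0 to 12 without 1 library. Transcripts passing (1) became 891 with DESeq2, 0 with the replicate block and 0 in each fit without 1 library. The cause of these shifts was not tested. At the ZBTB16 level of a few reads per library a difference in that gene cannot be resolved.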
